A study of Mus musculus with 8 samples.

Results

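The genes described here set the direction of glucose flux in the liver: 4 enzymes of glucose production (Pck1, G6pc, Fbp1 and Pcx), the transporters Slc37a4 and Slc2a2, and 3 genes of the switch to glycolysis (Gckr, Pklr and Mlxipl). They were chosen as known members of these steps. The choice was made with earlier results of these data known, so counts among the members do not test them as a set. Every probe set whose platform annotation gave 1 of these 9 symbols as its only gene was used. This made 17 of the 45101 probe sets on the array. Of the 17 probe sets, 13 were ordinary ones and all 13 passed the filter on dim signals, and the other 4 were Affymetrix control probe sets for Pcx. Liver RNA was measured on 8 Affymetrix mouse 430 2.0 arrays, 1-colour arrays that give a MAS5 signal intensity for each probe set, with 2 arrays in each of 4 groups. The groups were wild-type (WT) mice of 3, 12 and 19 months, and Sirt1-deficient (MT) mice of 3 months, which carry a targeted deletion of exons 5 and 6 of the deacetylase gene Sirt1 in the whole body and of which few survive to adulthood. Their genetic background mixed the strains 129, FVB and Black Swiss, and livers were taken between 9 and 11 in the morning. The MT mice were males, and the methods state that expression was compared only between mice of the same sex. The time of the last meal was not given in the sources used here, and the sources differ on the mice: livers of 3 mice are given for each group, but 2 arrays. Whether an array held RNA of 1 mouse or of several is thus not known, and p-values here cover only how far these arrays lay apart, which may be technical variation.

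In the fasted state hepatocytes make glucose from lactate, amino acids and glycerol and release it to the blood, and after a meal they take glucose up and break it down or turn it into fat. Glucagon, acting through cyclic AMP and the factors CREB and FoxO1, raises transcription of Pck1 and G6pc, and insulin lowers it. Glucose and insulin raise transcription of Pklr, the former through ChREBP, the product of Mlxipl. Messenger levels of these genes therefore depend strongly on feeding and on the time of day.

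The promoters of Pklr, Pck1 and G6pc are shown, since their control by glucose, cyclic AMP and insulin is well known and their windows held a matching motif. They were taken from RefSeq (GRCm38.p6), which matched all 9 genes with 14 windows of 250 bases before and 50 bases from the annotated start. Capitals mark matches to 6 motifs searched on both strands. The window of Pklr belongs to the downstream of its 2 annotated starts (chr3:89136373-89136672, plus strand). That of Pck1 is chr2:173152823-173153122 and that of G6pc chr11:101367466-101367765, both on the plus strand.
Pklr: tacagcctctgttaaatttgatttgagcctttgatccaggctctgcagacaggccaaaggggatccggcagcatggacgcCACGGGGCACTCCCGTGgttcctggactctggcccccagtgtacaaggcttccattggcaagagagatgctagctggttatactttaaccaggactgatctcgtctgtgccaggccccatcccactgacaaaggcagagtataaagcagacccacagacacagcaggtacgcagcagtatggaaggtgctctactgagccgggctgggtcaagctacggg
Pck1: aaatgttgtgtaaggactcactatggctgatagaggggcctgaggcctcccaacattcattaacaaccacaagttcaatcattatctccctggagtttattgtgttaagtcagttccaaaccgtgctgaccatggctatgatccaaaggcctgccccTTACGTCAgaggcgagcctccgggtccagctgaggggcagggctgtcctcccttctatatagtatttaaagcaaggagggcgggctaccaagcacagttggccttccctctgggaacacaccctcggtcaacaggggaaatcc
G6pc: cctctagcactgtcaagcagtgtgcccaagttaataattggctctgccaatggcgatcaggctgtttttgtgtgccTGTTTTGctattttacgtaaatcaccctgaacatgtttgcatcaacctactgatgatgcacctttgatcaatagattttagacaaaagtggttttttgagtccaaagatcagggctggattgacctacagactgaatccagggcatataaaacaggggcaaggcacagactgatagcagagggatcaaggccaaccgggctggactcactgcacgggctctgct
In Pklr the capitals are a pair of E-box-like elements (CANGNG and CNCNTG with 5 bases between them, the form bound by ChREBP and Mlx), at -170 to -154 from the start, which was found in 0.557% of 32851 windows of this length. In Pck1 they are a cyclic AMP response element (TNACGTCA) at -93 to -86, found in 2.93% of windows. In G6pc they are an insulin response motif (CAAAACA, here on the other strand) at -174 to -168, found in 6.28% of windows, and Gckr held the same motif at -83 to -77. An E-box (CACGTG, 7.15% of windows) lay at -98 to -93 in Mlxipl and at -248 to -243 in Pcx. The forkhead motif searched (TGTTTAC, 3.65%) and the PAR bZIP motif (TTATGNAA, 3.38%) had no match in a window of these genes. The E-box can overlap the paired element, and a match of letters is not evidence of binding.

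Over all probe sets the 8 arrays had medians of 74.7 to 83.1. Sirt1 itself was read by 1 tested probe set, with signals of 589 and 539 in 3-month-old WT mice and 615 and 713 in MT mice. Whether this probe set lies in the deleted exons was not known here, so that it checked neither the genotype nor the labels. Signals of 18 hepatocyte markers summed to between 695700 and 888200 on every array. Differences are given on the log2 scale with the standard error (SE) of a limma fit over all 4 groups. A probe set was called at a Benjamini-Hochberg adjusted p under 0.05 over 22519 tested probe sets. With 2 arrays a group, the smallest p of an exact two-sided permutation test is 0.333, so none was run.

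None of the 13 probe sets was called in any comparison (0 of 13 in each of 4). Over all tested probe sets the share called was 0.515% for MT against WT mice of 3 months, 0.0133% for 12 against 3 months, 0.0355% for 19 against 3 months and 0% for 19 against 12 months. The 3 comparisons with 3-month-old WT mice share those 2 arrays, so their values are given side by side only. Reading each gene by its brightest probe set, 7 of 9 genes lay above 0 in MT mice, 8 of 9 at 12 months and 3 of 9 at 19 months, as did 52.3%, 49.5% and 53.0% of all tested probe sets. Both arrays lay above both of 3-month-old WT mice for 5 of 9 genes in MT mice, 4 at 12 months and 1 at 19 months (24%, 19.3% and 26.4% of all tested probe sets). They lay below for 2, 1 and 2 genes (21.7%, 20.8% and 21.8%). The unadjusted limma p was under 0.05 for 1, 1 and 2 of the 9 genes (13.5%, 8.57% and 12.5%). From 12 to 19 months all 9 lay below 0, with a median of -0.35, while 54.4% of all tested probe sets lay above 0. The arrays of these 2 ages did not overlap for 6 of the 9 genes, each lower at 19 months, against 17.5% of all tested probe sets that were separated downwards. For 5 of the 9 the unadjusted limma p was under 0.05, as for 10.7% of all tested probe sets, and the smallest adjusted p was 0.214, for Slc37a4.

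**Figure D1:**
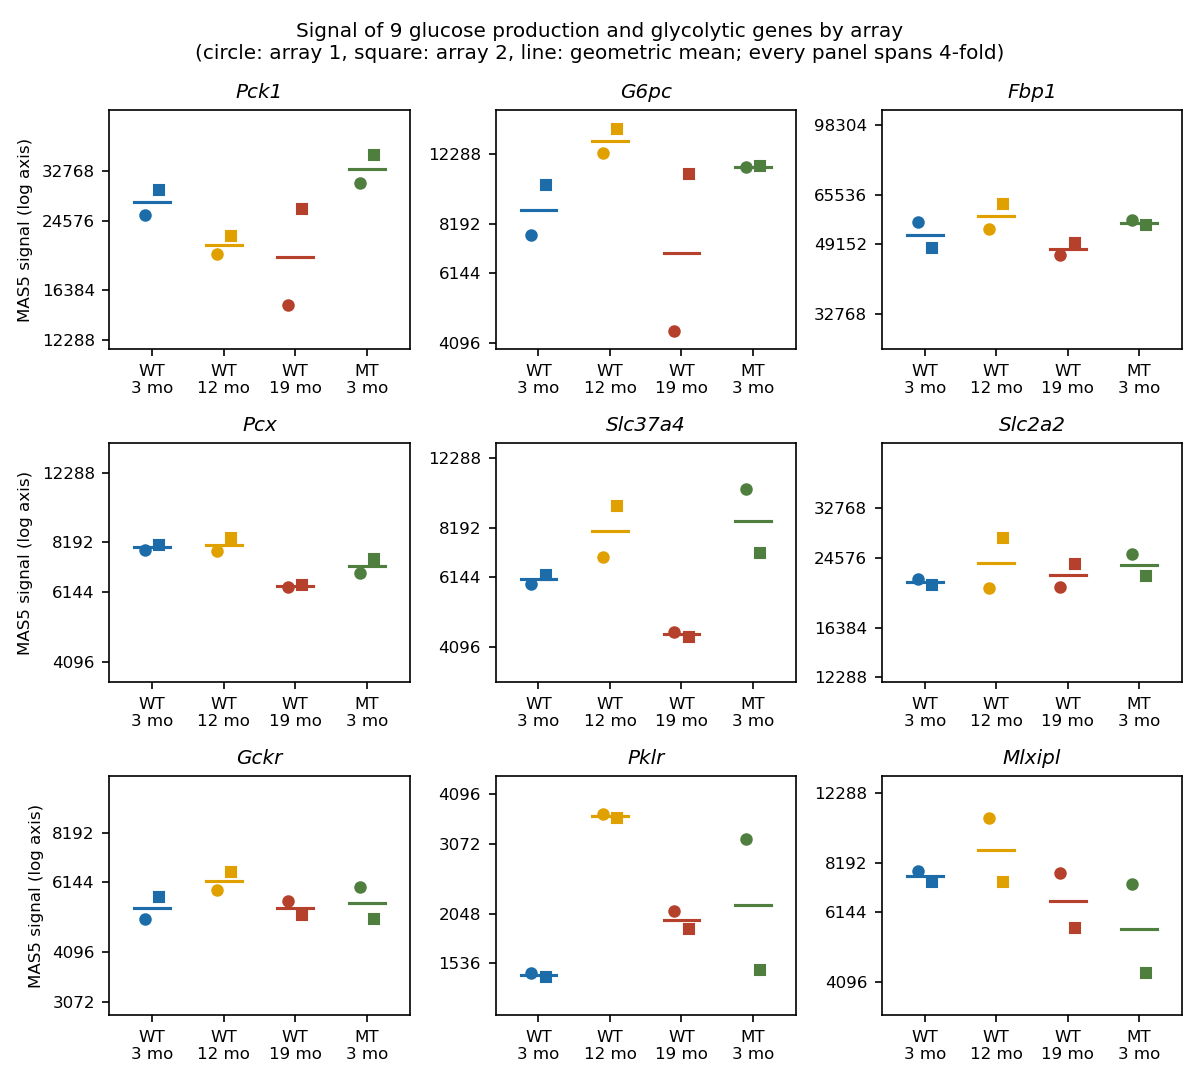
MAS5 signal (log axis, every panel spanning 4-fold) of the brightest probe set of each of the 9 genes in the 4 groups, with a circle for array 1, a square for array 2 and a line at their geometric mean. Pklr lies at 1449 and 1417 in 3-month-old WT mice and at 3656 and 3578 at 12 months, and the arrays at 19 months lie apart for G6pc (4399 and 10910).

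Pklr, which encodes the pyruvate kinase of liver and red cells, the last step of glycolysis, differed most. Its brightest probe set (1438711_at) read 1449 and 1417 in WT mice of 3 months, 3656 and 3578 at 12 months, 2079 and 1874 at 19 months, and 3156 and 1478 in MT mice. Both 12-month arrays lay above all other 6 arrays, and both 19-month arrays lay between the 12-month and the 3-month WT arrays. The difference of 12 from 3 months was 1.34 ± 0.28 (SE, n = 2 arrays per group), or 2.52-fold, with a 95% interval of 0.70 to 1.98. It ranked 95 of 22519 by p and did not pass (limma adjusted p = 0.239). The other probe sets gave 1.08 ± 0.30 (1421258_a_at, adjusted p = 0.364) and 1.20 ± 0.33 (1421259_at, adjusted p = 0.352). With only the 2 groups compared in the fit the adjusted p of the brightest was 0.0309, and it was 0.0139 without MT array 1 and 0.0126 without MT array 2, which change the estimate of spread and not the difference.

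Between 12 and 19 months Pklr differed by -0.87 ± 0.28 (limma adjusted p = 0.333). The 3 probe sets put 19 months above 3 months by 0.46, 0.13 and 0.66, with adjusted p from 0.455 to 0.901. The pair of MT arrays disagreed: array 1 was 1.09 to 1.16 above array 2 in log2 signal in all 3 probe sets, and array 2 was 0.04, -0.07 and 0.15 from the 3-month-old WT mean. A larger gap between both MT arrays was seen for 3.64% of tested probe sets. The MT difference was therefore 0.59 ± 0.28 (adjusted p = 0.406), but 1.14 without array 2 (adjusted p = 0.0389) and 0.04 without array 1. With 1 array left in a group its spread is taken from the other groups, so that such a p does not test the spread within that group. Array 1 also had a sum of 787 over 5 fat and muscle markers against 117 to 253 on the other 7 arrays. None of those 5 genes passed the filter, and their part in the Pklr signal was not tested. Signals of 3 red cell markers, of which 1 passed the filter, summed to 206 and 186 in 3-month-old WT mice. The sums were 371 and 240 at 12 months, 406 and 294 at 19 months, and 292 and 270 in MT mice. The part of red cells in the Pklr signal was not tested either.

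**Figure D2:**
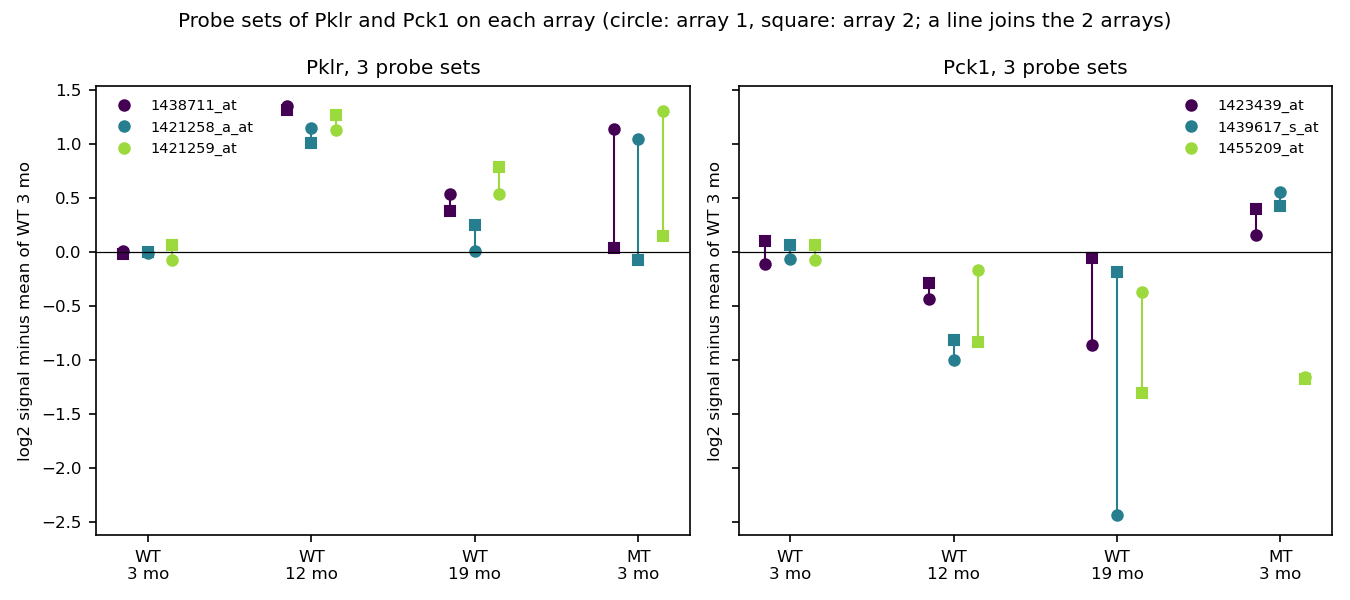
log2 signal of the 3 probe sets of Pklr (left) and of Pck1 (right) on each array, minus the mean of the 3-month-old WT arrays, with a circle for array 1 and a square for array 2. The 3 Pklr probe sets lie between 1.01 and 1.35 at 12 months and split between both MT arrays, and Pck1 1455209_at lies at -1.16 in MT mice where the other 2 probe sets lie above 0.

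Mlxipl, which encodes the glucose-responsive factor ChREBP, had signals of 7828 and 7339 in 3-month-old WT mice, 10630 and 7331 at 12 months, 7709 and 5610 at 19 months, and 7252 and 4315 in MT mice. Both MT arrays lay below both 3-month-old WT arrays, and the 3 WT ages overlapped. The MT difference was -0.44 ± 0.26 (adjusted p = 0.517), with an interval of -1.03 to 0.15, and it was -0.06 without MT array 2 and -0.81 without MT array 1. At 12 months it was 0.22 ± 0.26 (adjusted p = 0.877), or -0.05 without array 1 of that age.

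A list of 20 partner and target genes of ChREBP was read through the 19 genes that were tested, and 0 were called in any comparison. Over 10976 genes the share called was 0.702% in MT mice, 0.00911% at 12 months and 0.0364% at 19 months. From 12 to 19 months it was 0%. At such shares a count of 0 in a list this short says little about its genes, here and in the lists below. At 12 months 17 of 19 lay above 0 with a median of 0.79, while the median over 10976 genes was 0.012. From 12 to 19 months 16 of 19 lay below 0 with a median of -0.70. At 19 months 13 of 19 lay above the 3-month level with a median of 0.13, and in MT mice 14 of 19 with a median of 0.38. Pnpla3, a lipid droplet lipase gene, read 261 and 442 at 3 months and 1188 and 1266 at 12 months, a difference of 1.85 (adjusted p = 0.103). Acly, which makes the acetyl-CoA for fat synthesis, read 7466 and 8023 at 3 months, 18120 and 13520 at 12 months and 7678 and 7433 at 19 months, so that 12 months differed by 1.02 (adjusted p = 0.221). In MT mice Thrsp, a regulator of fat synthesis, read 54650 on array 1 and 18920 on array 2, against 10510 and 17690 in WT mice of 3 months (1.24, adjusted p = 0.229). Its MT arrays were split in the same order as those of Pklr. Gpd1, a glycerol phosphate dehydrogenase gene with a larger moderated t in MT mice, was not split, at 3135 and 3140 against 2383 and 2203 in WT mice of 3 months (0.45, adjusted p = 0.185).

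**Figure D3:**
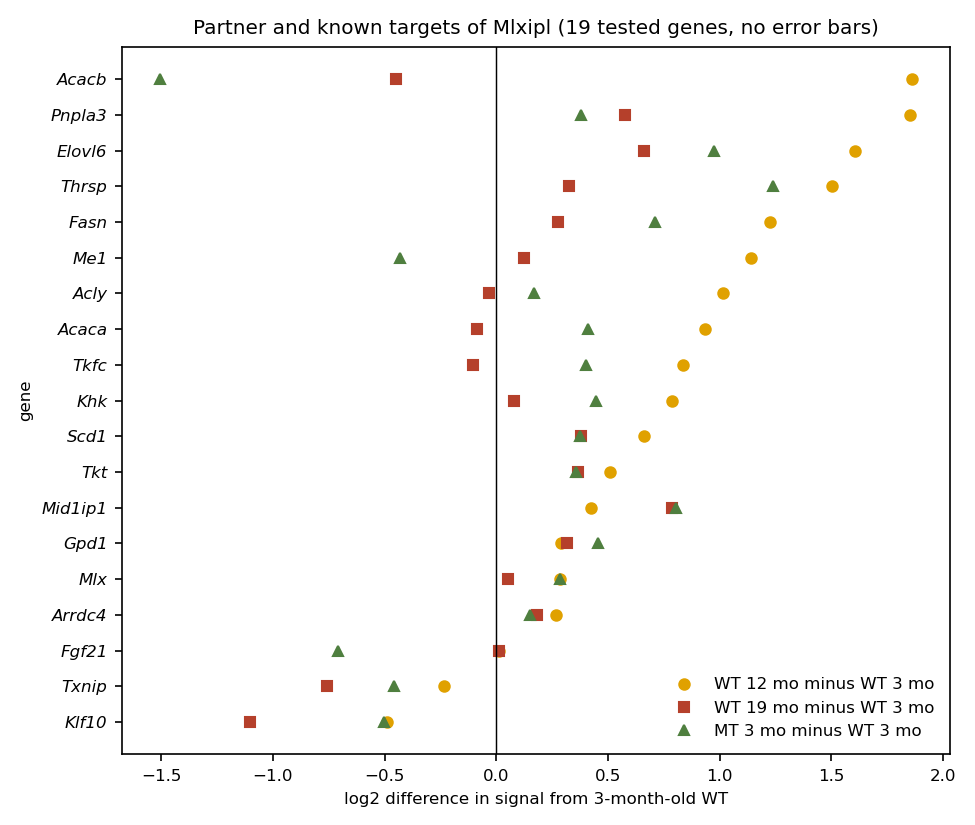
log2 difference in signal from 3-month-old WT mice for 19 tested partner and target genes of Mlxipl in WT mice of 12 months (circles) and of 19 months (squares) and in MT mice (triangles), ordered by the value at 12 months. At 12 months 17 of 19 genes lie above 0, and none of the values passed the test.

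Gckr encodes the regulatory protein that holds glucokinase in the nucleus. Its signals were 4950 and 5624 in 3-month-old WT mice, 5866 and 6524 at 12 months, 5498 and 5073 at 19 months, and 5963 and 4949 in MT mice. The 12-month arrays lay above both 3-month arrays by 0.23 ± 0.14 (adjusted p = 0.710), and the 19-month and MT arrays overlapped with those of 3 months. Both 19-month arrays lay below both 12-month arrays (-0.23 ± 0.14, adjusted p = 0.603). At 19 months the difference from 3 months was 0.0014 with an interval of -0.32 to 0.32. In MT mice it was 0.04, with an interval of -0.28 to 0.36. Glucokinase itself was not analysed here. Of 12 genes for other glycolytic enzymes and for the control of fructose 2,6-bisphosphate, 10 were tested and 0 were called. Pfkl, the liver phosphofructokinase, differed by 0.56 at 12 months (adjusted p = 0.528).

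Pck1 encodes the cytosolic phosphoenolpyruvate carboxykinase, an early step of glucose production. Its brightest probe set (1423439_at) read 25440 and 29350 in WT mice of 3 months, 20210 and 22400 at 12 months, 15060 and 26290 at 19 months, and 30490 and 36020 in MT mice. Both MT arrays were the highest of the 8, and both 12-month arrays lay below both 3-month arrays. The differences were 0.28 ± 0.23 in MT mice (adjusted p = 0.651), -0.36 ± 0.23 at 12 months (adjusted p = 0.712) and -0.46 ± 0.23 at 19 months (adjusted p = 0.455). The value at 19 months was -0.06 without array 1 of that age and -0.86 without array 2, and the MT value ranged from 0.16 to 0.40 with single arrays left out. With all arrays the 3 probe sets had the same sign at both ages, with values of -0.36, -0.91 and -0.50 at 12 months and of -0.46, -1.30 and -0.83 at 19 months. For the dimmest (1455209_at) they ranged from -0.83 to -0.16 at 12 months and from -1.30 to -0.37 at 19 months with single arrays left out.

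The probe sets of Pck1 did not agree in MT mice. A probe set of the kind whose probes are shared between transcripts (1439617_s_at) read 2061 and 2257 in WT mice and 3183 and 2903 in MT mice, a difference of 0.50 ± 0.54. The dimmest (1455209_at) read 244 and 270 in WT mice and 115 and 114 in MT mice, a difference of -1.16 ± 0.35 with an unadjusted limma p of 0.0083 (adjusted p = 0.185). The mean over the 3 probe sets was -0.13. Where these probe sets lie in the transcript was not known here. At 19 months 1439617_s_at read 401 on array 1 and 1904 on array 2, a gap of 2.25 that 0.27% of tested probe sets exceeded. Without array 2 its difference from 3 months was -2.43 (adjusted p = 0.0102, with the spread taken from the other groups), and without array 1 it was -0.18.

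G6pc encodes the catalytic subunit of glucose 6-phosphatase, the last step of glucose release. Its signals were 7664 and 10290 in 3-month-old WT mice, 12380 and 14240 at 12 months, 4399 and 10910 at 19 months, and 11360 and 11430 in MT mice. Both 12-month arrays were the highest of the 8, and array 1 of 19 months was the lowest. That array was also the lowest for Pck1 1423439_at and 1439617_s_at, but for Pck1 1455209_at array 2 of 19 months was the lowest (105, against 199 on array 1). The gap of 1.31 between both 19-month arrays was exceeded by 1.48% of tested probe sets. The differences from 3 months were 0.58 ± 0.34 at 12 months (adjusted p = 0.683), -0.36 ± 0.34 at 19 months (adjusted p = 0.717) and 0.36 ± 0.34 in MT mice (adjusted p = 0.710). Without array 1 the value at 19 months was 0.30. From 12 to 19 months it was -0.94 ± 0.34 (adjusted p = 0.381), but -0.28 without array 1 of 19 months and -1.59 without array 2. With single arrays left out the MT value ranged from 0.15 to 0.57, and the value at 12 months from 0.37 to 0.79.

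Slc37a4, which carries glucose 6-phosphate into the endoplasmic reticulum where G6pc acts, had signals of 5919 and 6237 at 3 months, 6899 and 9305 at 12 months, 4461 and 4351 at 19 months, and 10260 and 7053 in MT mice. Both 19-month arrays lay below all other 6, and both the 12-month and the MT arrays lay above those of 3-month-old WT mice. The difference from 12 to 19 months was -0.86 ± 0.20, with an interval of -1.30 to -0.42 (adjusted p = 0.214). It was 0.49 ± 0.20 in MT mice, the smallest adjusted p of the 9 genes in that comparison (adjusted p = 0.322). At 19 months it was -0.46 ± 0.20 (adjusted p = 0.379) and at 12 months 0.40 ± 0.20 (adjusted p = 0.621). When each array was left out, the value from 12 to 19 months lay between -1.08 and -0.65. The MT value was 0.22 without MT array 1 and 0.76 without MT array 2, and the value at 12 months was 0.61 without array 1 and 0.18 without array 2 of that age.

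Slc2a2, the main glucose carrier of the hepatocyte surface, read 21670 and 21000 at 3 months, 20670 and 27600 at 12 months, 20750 and 23760 at 19 months, and 25160 and 22110 in MT mice. The WT ages overlapped, and the differences from 3 months were 0.16, 0.06 and 0.14 in that order of groups, with adjusted p from 0.750 to 0.917. Fbp1, which encodes fructose 1,6-bisphosphatase, read 55880 and 48120 at 3 months, 53880 and 62100 at 12 months, 46130 and 49530 at 19 months, and 56640 and 54930 in MT mice. It differed from 3 months by 0.16 at 12 months and -0.12 at 19 months, and MT mice by 0.11, and each of these groups overlapped with 3-month-old WT mice. The interval in MT mice was -0.17 to 0.38.

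**Figure D4:**
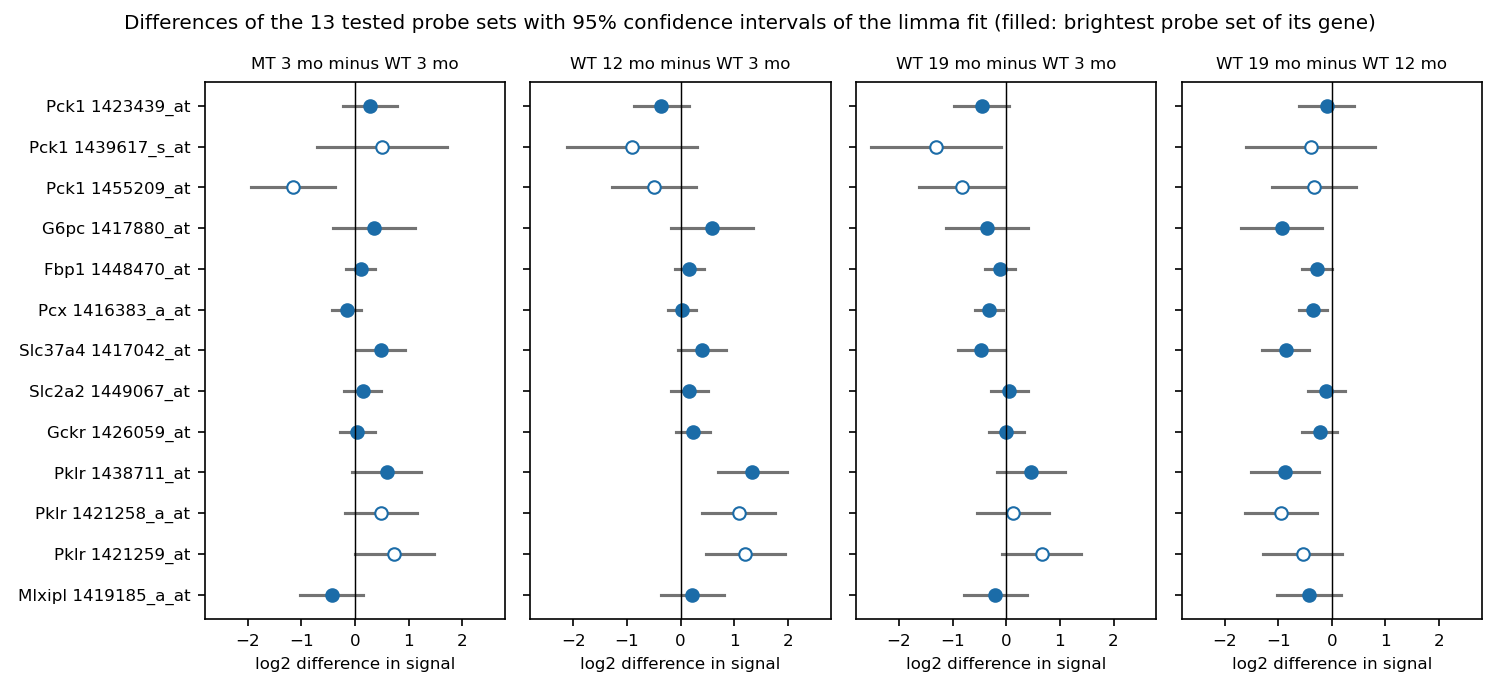
log2 difference in signal (points) and 95% confidence interval of the limma fit (lines) of the 13 tested probe sets in 4 comparisons, with filled points for the brightest probe set of each gene. From 12 to 19 months all points lie below 0, and the largest single value is that of Pklr at 12 months (1.34).

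Pcx encodes pyruvate carboxylase, which feeds pyruvate into glucose production. Its ordinary probe set read 7854 and 8080 at 3 months, 7780 and 8413 at 12 months, 6306 and 6400 at 19 months, and 6842 and 7461 in MT mice. Both 19-month arrays were the lowest of the 8, with a difference from 3 months of -0.33 ± 0.12 (adjusted p = 0.323, the smallest of the 9 genes in that comparison). The MT difference was -0.16 ± 0.12 (adjusted p = 0.614).

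The array also carries 4 Pcx control probe sets along the transcript, named 3', MB, MA and 5', and these moved unequally with age. The 3' control read 5736 and 5502 at 3 months and 4882 and 4470 at 19 months, a difference of -0.27 ± 0.14. The 5' control read 301 and 373 at 3 months, 217 and 177 at 12 months, 84.3 and 163 at 19 months, and 342 and 346 in MT mice. Its difference was -0.78 ± 0.31 at 12 months (adjusted p = 0.535) and -1.51 ± 0.31 at 19 months (adjusted p = 0.157). The MA control differed by -2.21 ± 0.54 at 19 months (adjusted p = 0.205) and by -1.04 at 12 months. The MB control differed by -0.10 at 19 months, and in MT mice the 4 controls differed from WT by -0.13 (3'), 0.02 (MB), -0.25 (MA) and 0.04 (5').

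**Figure D5:**
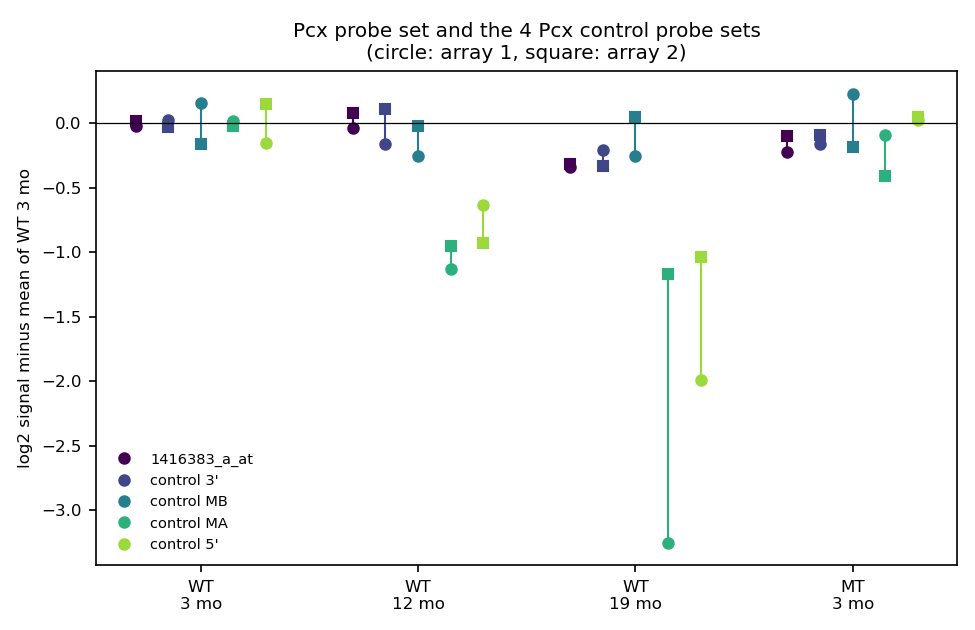
log2 signal of the Pcx probe set and the 4 Pcx control probe sets on each array, minus the mean of the 3-month-old WT arrays, with a circle for array 1 and a square for array 2. The 5' control lies between -0.63 and -1.99 on the 4 arrays of 12 and 19 months and at 0.03 and 0.05 in MT mice, while the ordinary probe set lies no lower than -0.34 on any array.

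The same comparison of 3' and 5' control probe sets was made for 3 other transcripts. For Gapdh, 3' minus 5' in log2 signal was -0.59 and -0.51 at 3 months, -0.34 and -0.46 at 12 months, -0.39 and -0.44 at 19 months, and -0.62 and -0.38 in MT mice. For Actb it was 1.22 and 1.09 at 3 months, 1.26 and 1.31 at 12 months, 1.23 and 1.25 at 19 months, and 0.97 and 1.48 in MT mice. For Tfrc it was 0.11 and 0.61 at 3 months, 2.70 and 2.74 at 12 months, 0.93 and -0.17 at 19 months, and 1.27 and -0.38 in MT mice. Both older groups thus lay above 3-month-old WT mice for Gapdh and Actb, by less than for Pcx, while for Tfrc this held at 12 months only. For Actb the margin was very small, at 1.228 on array 1 of 19 months against 1.224 on array 1 of 3 months. Its MT arrays lay further apart than that, at 0.97 and 1.48, so Actb shows no clear shift with age. The part of transcript integrity in the age differences of the members was not tested.

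Markers of cell types also differed at 19 months. Of 18 tested hepatocyte markers 16 lay below the 3-month level, with a median of -0.16. Among 10 markers of periportal hepatocytes, the zone where glucose production is highest, 9 lay below, with a median of -0.28. Pericentral hepatocyte markers did much the same, with 10 of 13 below and a median of -0.25. The hepatocyte and periportal lists both hold Alb and Cps1, so that they are not independent. Of 12 Kupffer cell and macrophage markers 12 lay above, with a median of 0.57. From 12 to 19 months, where all 9 members lay lower, 16 of 18 hepatocyte markers (median -0.13) and 9 of 10 periportal markers (median -0.28) also lay below 0. The pericentral markers did not share this, with 6 of 13 below 0 (median 0.07). Of the Kupffer cell and macrophage markers 12 of 12 lay above (median 0.70). Markers of T, NK, B and plasma cells summed to 1545 and 1922 at 3 months, 5274 and 4188 at 12 months, 8843 and 7927 at 19 months, and 1474 and 2017 in MT mice. Such a sum is led by its brightest genes. Of the 8 tested genes of this list 4 lay above 0 at 12 months (median -0.13) and 6 at 19 months (median 0.42). In MT mice 3 did (median -0.24). Only Igha, which encodes the heavy chain of IgA, was called, higher at 12 months (2.49, adjusted p = 0.00902) and at 19 months (3.34, adjusted p = 0.00065). Over 10976 genes the share called was 0.00911% at 12 months and 0.0364% at 19 months. In bulk liver RNA fewer hepatocytes and less RNA per hepatocyte cannot be told apart, and the part of these shifts in the values of the members at 19 months was not tested. At 12 months, where most members lay above 0, hepatocyte markers had a median of 0.02. Periportal markers then had a median of 0.04, and 10 of 13 pericentral markers lay below 0 (median -0.38).

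Neighbouring genes of the pathway were read through lists of the steps around the members, and 1 of these pathway genes was called. Over 10976 genes the share called was 0.702% in MT mice, 0.00911% at 12 months and 0.0364% at 19 months. Counts of 0 in these short lists are near those shares. Ppp1r3c, a subunit that targets protein phosphatase 1 to glycogen, fell in MT mice from 5271 and 4014 to 1492 and 1423, a change of -1.66 (adjusted p = 0.0117), the only 1 of 15 tested genes of glycogen metabolism to be called in any comparison. Of 11 tested genes for other enzymes and carriers of glucose production 0 were called. Gpt2, an alanine aminotransferase, read 4683 and 6830 in WT mice of 3 months, 11950 and 9087 in MT mice, 10170 and 10470 at 12 months and 5016 and 4560 at 19 months. Its differences were 0.88 in MT mice (adjusted p = 0.0830) and 0.87 at 12 months (adjusted p = 0.258).

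Of 24 tested regulators of gluconeogenic transcription 0 were called, and their medians lay between -0.025 and 0.036 in the 4 comparisons. Nr0b2, which encodes the repressor SHP, read 4401 and 2418 at 3 months and 1127 and 1252 at 12 months, a difference of -1.46 (adjusted p = 0.233). Sik1, a kinase that restrains CREB coactivators, read 64.6 and 62.1 in WT mice and 163 and 184 in MT mice (1.45, adjusted p = 0.170). Both WT signals lay below the medians of their arrays (79.6 and 81.9), so this difference starts from dim signal. Of 10 tested genes of the pyruvate dehydrogenase complex and its control 0 were called. Pdk4, the kinase that shuts the complex in fasting, read 651 and 604 in WT mice and 232 and 343 in MT mice (-1.15, adjusted p = 0.102). Of 19 tested genes of insulin and glucagon signalling 0 were called. Trib3, an inhibitor of Akt, read 377 and 441 at 3 months and 158 and 112 at 19 months (-1.61, adjusted p = 0.0959). It was also lower at 12 months, at 139 and 213 (-1.25), and in MT mice, at 178 and 198 (-1.12). Of 8 tested enzymes shared by glycolysis and glucose production 0 were called, and Got1, a cytosolic aspartate aminotransferase, differed by -1.19 from 12 to 19 months (adjusted p = 0.202). Its 12-month arrays were split, at 13410 and 6737, against 4148 and 4179 at 19 months and 7366 and 7682 at 3 months.

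Genes that follow feeding were set beside the members, since no meal time was given. Of 11 tested genes that rise in liver on feeding 9 lay above 0 at 12 months with a median of 1.02, and 8 lay below 0 from 12 to 19 months with a median of -0.95. Nr0b2, which is also in this list, went the other way, at -1.46 at 12 months and 1.19 from 12 to 19 months. Of the 11 genes 8 are also in the list of ChREBP targets (Acaca, Acly, Elovl6, Fasn, Me1, Pnpla3, Scd1 and Thrsp), so that the lists are not independent. Of 12 tested genes that rise on fasting 6 lay above 0 at 12 months (median -0.06), and 9 lay below 0 at 19 months (median -0.35). From 12 to 19 months 9 of these 12 fasting genes also lay below 0 (median -0.36), as most feeding genes did. In MT mice 8 of the 11 feeding genes lay above 0 (median 0.38) and 7 of the 12 fasting genes below 0 (median -0.20). In neither list was a gene called, and the part of feeding in the values of the members was not tested.

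For 4 of the members the 3 genes of most similar signal over the 8 arrays were taken from 10975 genes, as a description with no p. They were Hars, Cyp3a11 and Atp8b3 for Pck1 (Pearson r of 0.95, 0.95 and 0.94), and Etf1, Msl3 and Dip2c for G6pc (0.99, 0.95 and 0.94). They were Ubr7, Rad17 and the glucose carrier gene Slc2a4 for Pklr (0.98, 0.96 and 0.95), and Wdr53, Ido2 and Isoc1 for Mlxipl (0.97, 0.96 and 0.95). With 8 arrays in 4 groups such values are shared by groups and arrays alike. Etf1, for example, read 1161 on array 1 of 19 months and 1596 on array 2, the same split as G6pc. Slc2a4 read 119 and 121 at 3 months and 466 and 317 at 12 months.

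The methods' t-test (p under 0.05 and more than 1.5-fold, without adjustment) passed 4 of 13 member probe sets at 12 months, namely all 3 of Pklr and Pck1 1439617_s_at. It passed 1 of 13 at 19 months (Pklr 1421259_at), 1 in MT mice (Pck1 1455209_at), and 2 from 12 to 19 months (Pklr 1421258_a_at and 1438711_at). Over all tested probe sets the shares were 2.23%, 3.33%, 3.95% and 2.33% in that order. After Benjamini-Hochberg adjustment it passed 0 of 13 in each.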

How the data were processed

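Livers were placed in RNALater, RNA was isolated with STAT-60 and RNeasy, and cRNA was hybridised to 1 array per sample. Values were used as the authors deposited them, as linear MAS5 signal intensity, with a trimmed mean of 500.0 on each of 8 arrays. No MAS5 version was given in the sources used. The presence filter of the methods, which needs detection calls, was not applied.

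Groups came from the sample labels. Each signal was raised to at least 1 and turned to log2. Controls aside, 45037 probe sets remained, and the brighter 50% of them by mean log2 signal (22519) were tested. The fit used limma 3.58.1 under R 4.3.3, with lmFit on all 4 groups and eBayes allowing the variance to depend on the signal (residual df 4, prior df 5.37). Benjamini-Hochberg adjustment was done per comparison, and all p-values are two-sided. A second fit kept the Pcx controls. The platform annotation gave 34945 probe sets 1 symbol, of which 34741 were found by Entrez ID in a RefSeq table, with 0 symbols changed. The scripts were tested on simulated data. The number of arrays limits the precision. Motif searches ran under Python 3.11.15 (pandas 2.3.3, numpy 2.4.6) and figures under matplotlib 3.10.9.

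The members, gene lists and tests were chosen with earlier results of these data known. All probe sets of the 9 members are described. List genes were named where called, and otherwise from those of largest moderated t in their list and comparison. The genes most like Pck1, G6pc, Pklr and Mlxipl are given. In the remaining cell type lists 0 genes were called among 9 tested endothelial, 7 stellate and 3 neutrophil markers. For bile duct, red blood, kidney and gut, and pancreas cells only 1 marker each was tested, and 0 were called. The pericentral list (13 tested) also held 0 called genes, with medians of -0.38 at 12 months and -0.25 at 19 months. Over all genes the share called was 0.702% in MT mice, 0.00911% at 12 months and 0.0364% at 19 months. Counts of 0 in such short lists thus say little. Alternatives changed scaling, floor, filter, control probe sets, samples fitted, variance prior, test, replicate block and choice of probe set, and left out each array in turn.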

Additional observations from a re-analysis of the deposited data

Results flagged for a closer look

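Control probe sets outside the main test gave larger gaps between the 3' end of Pcx and its 5' and MA controls at 12 and 19 months than in young WT mice, while the 5' and MA signals themselves were lower at these ages. For Pcx the 3' control minus the 5' control in log2 signal was 4.25 and 3.88 in 3-month-old WT mice, 4.54 and 5.10 at 12 months, 5.86 and 4.77 at 19 months, and 3.88 and 3.93 in MT mice. The 3' control minus the MA control was 4.35 and 4.33 in 3-month-old WT mice, 5.30 and 5.40 at 12 months, 7.39 and 5.17 at 19 months, and 4.27 and 4.65 in MT mice. All 4 arrays of the older ages were above both arrays of 3-month-old WT mice in both measures. On array 1 of 19 months the MA control read 29.2, which is below the median signal of that array. With 2 arrays in a group no array could be tested as an outlier.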

How the results depend on the processing

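The count of called probe sets moved with the fit. For MT against 3-month-old WT mice (116 called) it was 177 under a stricter filter on signal, 9 without a variance trend and 233 with robust eBayes, and 13 to 255 when single arrays were left out. For 12 against 3 months (3 called) it was 5 with arrays centred on the median, 12 with only both groups fitted, 0 without the trend, and 0 to 20 with arrays left out. For 19 against 3 months (8 called) it was 21 with centred arrays, 3 under the stricter filter, 135 with only both groups fitted, 1 without the trend, and 2 to 30 with arrays left out. For 19 against 12 months (0 called, with 2419 at an unadjusted limma p under 0.05) it was 3 without a filter, 5 with only both groups fitted, 2 with robust eBayes, and 0 to 11 with arrays left out. The methods' t-test passed 890, 502, 750 and 524 probe sets and, after Benjamini-Hochberg adjustment, 0 in each. Of the 13 member probe sets it passed 1, 4, 1 and 2.

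Fitting only 12 and 3 months called 1 member probe set, of Pklr. Leaving out single arrays called 0 to 1 in the first 3 comparisons and 0 from 12 to 19 months. The genes above 0 then numbered 6 to 7 in MT mice, 6 to 8 at 12 months, 2 to 3 at 19 months and 0 to 1 from 12 to 19 months. Scaling moved the median of all probe sets by under 0.05. Direction turned for Pck1 in MT mice as the mean of its probe sets (-0.13) and for Fbp1 at 19 months under quantile normalization (0.088), and the cause was not tested.

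With single arrays left out, direction also turned as follows. In MT mice Gckr ranged from -0.092 to 0.18, Fbp1 from -0.0026 to 0.21 and Pklr 1421258_a_at from -0.071 to 1.05. At 12 months Mlxipl ranged from -0.048 to 0.49, Pcx from -0.034 to 0.079 and Slc2a2 from -0.046 to 0.37. At 19 months G6pc ranged from -1.01 to 0.30, Gckr from -0.091 to 0.093, Mlxipl from -0.43 to 0.024 and Slc2a2 from -0.040 to 0.16. Between 12 and 19 months Slc2a2 ranged from -0.31 to 0.10, and the Pck1 probe sets from -0.50 to 0.30, -1.52 to 0.73 and -0.80 to 0.13.

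Replicate numbers showed little sign of pairing the arrays, as deviations of same-numbered arrays correlated at -0.033 to 0.14. The highest value was that between 12 and 19 months. Groups of 2 arrays cannot settle whether same-numbered arrays were handled together, and no label says so. With the number as a replicate block 129, 3, 25 and 0 probe sets were called in the 4 comparisons, and 0 of the members. With 2 arrays in a group, 1 array often decided a direction.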
